A study of Drosophila melanogaster with 8 samples.

Results

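Expression in larvae lacking a small nuclear RNA (snRNA) of the minor spliceosome was compared with expression in wild type larvae, with both deletion strains taken as a single group. The deletion group held 2 libraries of U12Δ/Δ larvae and 2 of U6atacΔ/Δ larvae, and the WT group held 2 libraries of the isogenic w1118 strain. Of the 17473 genes in the tables, 10755 had a mean TPM (a length-corrected share of transcripts, scaled to the same total in each library) of at least 1 over these 6 libraries. In 457 of them all 4 deletion libraries lay above both WT libraries, which is 4.25% of the genes tested. In 1973 all 4 lay below both, which is 18.3%, and in the other 8325 the groups overlapped. These 2430 genes are described here.

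Each library was made from total RNA of 12 whole wandering larvae of the third instar (L3), pooled, and each strain was sampled as 2 biological repeats. The deletions were made with Cas9 driven by the germline promoter of nanos and pairs of guides, were backcrossed to WT for at least 5 generations, and were kept over a balancer chromosome carrying GFP. Homozygous larvae without the balancer were collected, and such animals die as pupae. The series also holds 2 libraries of SmnΔ/Δ larvae, which do not enter the comparison. Because whole animals were pooled, fewer cells of a type and less RNA per cell cannot be told apart in any of the values below.

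The minor spliceosome removes a rare class of introns, called U12-type, from pre-mRNA. In it the U12 snRNA pairs with the branch point and the U6atac snRNA pairs with the 5′ splice site, the places held by U2 and U6 in the major spliceosome that removes nearly all other introns. Flies have very few U12-type introns, and their host genes include splicing factors, ion exchangers, signaling proteins and transcription factors.

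The libraries of a strain differed widely. Across the genes tested, log2(TPM + 1) correlated at 0.650 between the U12Δ/Δ libraries, 0.719 between the U6atacΔ/Δ libraries and 0.657 between the WT libraries, against 0.604 to 0.657 between a deletion and a WT library. Between 8965 and 9563 genes reached a TPM of 1 in a deletion library, against 10255 and 10934 in a WT library, and the 10 highest genes held 20.5% to 35.0% of the TPM against 17.2% and 21.7%. The median log2 difference of all genes was −0.50, and 66.2% of genes had a negative one. Scaling the libraries by median ratios moved that median by 0.55, to 0.05. Under that scaling 1041 genes lay above and 1092 below both WT libraries, so that the share of above genes among those on 1 side was 48.8% in place of 18.8%. Quantile normalization gave 1073 and 1076. Medians of lists are therefore to be read against the median of all genes. Sides of WT, log2 differences and calls rest on unscaled values unless stated.

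Neighboring rows of the deposited tables shared their deviations. The difference between the 2 libraries of a strain correlated between neighboring rows at 0.50 in U12Δ/Δ, 0.51 in U6atacΔ/Δ and 0.44 in WT, although such a difference holds no effect of the deletion. The deletion minus WT difference correlated at 0.36 between neighbors in the order of the tables and at 0.21 in the order of the genome. This sharing was uneven. In the rows 4001 to 10000, which are 12 of 35 blocks of 500 rows, it stayed under 0.25 in each strain, and these rows are called the quiet stretch below. There the libraries of a strain correlated at 0.797, 0.855 and 0.787 in U12Δ/Δ, U6atacΔ/Δ and WT, against 0.596, 0.669 and 0.608 in the other rows. A deletion and a WT library correlated at 0.742 to 0.778 there. The quiet stretch holds 3695 of the genes tested and is given beside the main results. It was chosen after the data were seen, from differences within strains. The test used below takes its spread partly from these same differences, so the choice can lower the p values of a fit to these rows. The origin of the sharing was not tested.

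**Figure D1:**
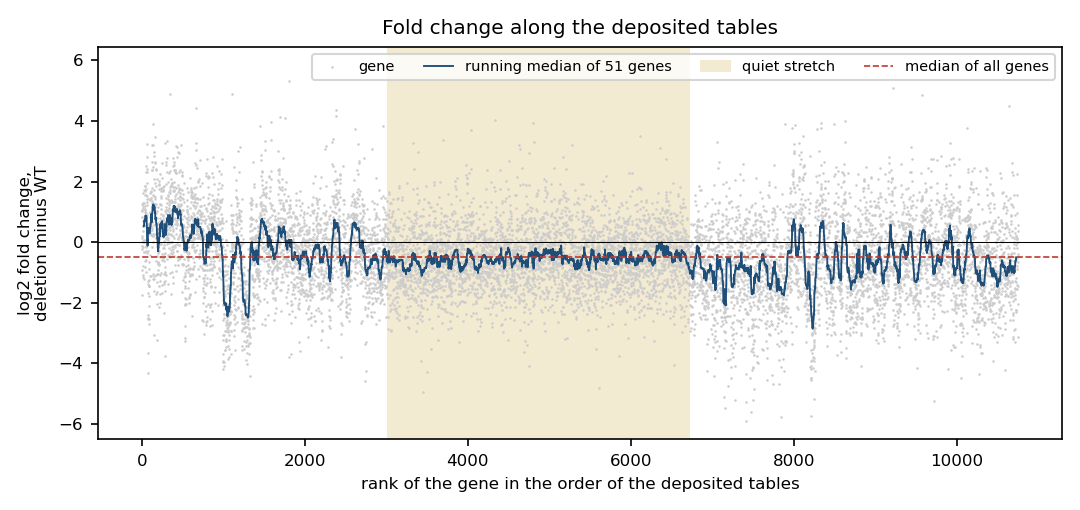
Each gray point is a gene, placed on the x axis by its rank in the deposited tables and on the y axis by its log2 difference, deletion minus WT, on the log2(TPM + 1) scale. The blue line is the running median of 51 genes, which moved between −2.86 and 1.25, and within the shaded quiet stretch it kept close to the dashed median of all genes at −0.50.

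The introns that define the minor spliceosome's own targets are shown first, since their class is defined by its sequence. The study's list of introns sensitive to both deletions holds 15 U12-type introns in 15 genes and 48 others in 46 genes, and it was drawn from these same libraries, so it is not independent of them. The windows below give the last 5 exon bases and the first 20 intron bases on the transcribed strand (dm6), with ATCCTTT, the letters that U6atac and U11 read, in capitals.
Sf3a1 (intron chr3R:17002029-17002150, minus strand): tagaagcATCCTTTgccaaaaagaa
Nhe3 (intron chr2L:6681773-6681942, minus strand): cattgatATCCTTTtcaaagattaa
Kcmf1 (intron chr3R:9012306-9012836, minus strand): ttctgatATCCTTTttcaaacagac
pros (intron chr3R:11377218-11378034, plus strand): ctactatATCCTTTtacaaacaaat
Tsp97E (intron chr3R:26963521-26964117, minus strand): tcttcgtATCCTTTttcctcaaagc
hydra (an intron of the other class, chrX:20672047-20672119, minus strand): agcaggtgtgttacattgtttgcca
The motif stood at intron positions 3 to 9, counted from 1 at the first intron base, in 15 of 15 U12-type introns and in 0 of the 48 others. Introns are called U12-type by this very consensus, so the split describes the class and is no finding. The hydra intron, a short one with ordinary GT and AG ends, is shown for contrast. At the other end, CTTAAC, a core of the branch point that U12 pairs with, was searched for on the transcribed strand in the last 50 intron bases. It was found in 11 U12-type introns, or 73.3%, and in 2 of the others, or 4.17%. The last 30 bases of 2 of these introns show it in capitals.
Nhe3: tgctaatgacttcCTTAACtcccaccgcac
Kcmf1: cacttggttgcCTTAACctgtagacaatac
The U12-type introns began and ended with AT and AC in 8 cases, with GT and AG in 6 and with GC and AG in 1, that of Sf3a1. Their median length was 302 bases, against 59 for the others.

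The targeted genes come next. snRNA:U12 was listed at a TPM of 0 and 0 in U12Δ/Δ and at 0.307 and 1.33 in U6atacΔ/Δ, against 0.0724 and 0.454 in WT. snRNA:U6atac was listed at 0 in all 6 libraries. The U12 snRNA was thus listed at 0 in the libraries labelled as lacking it, at levels near 0 in the others, and the U6atac labels could not be checked. Of 4 RNA genes of the minor spliceosome in the tables, 0 reached the mean TPM of 1.

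Among the 15 hosts of U12-type introns, 3 lay above and 1 below both WT libraries, against 4.25% and 18.3% of all genes, and 12 had a positive log2 difference. Their median was 0.74, against −0.50 for all genes. Sf3a1, a subunit of the SF3a complex of the U2 snRNP, had 18.2 and 60.7 TPM in U12Δ/Δ and 77.6 and 87.7 TPM in U6atacΔ/Δ, against 7.72 and 4.35 TPM in WT. Its log2 difference was 2.97 ± 0.97 (SE). Epac, an exchange factor that activates the small GTPase Rap when bound to cAMP, had 26.3 and 35.6 TPM in U12Δ/Δ and 45.0 and 61.6 TPM in U6atacΔ/Δ, against 1.08 and 10.03 TPM in WT. Both genes were higher in each deletion library than in either WT library, with the U6atacΔ/Δ pair the higher. Nhe3, a sodium and proton exchanger, had 44.9 and 180.4 TPM in U12Δ/Δ and 21.1 and 42.5 TPM in U6atacΔ/Δ, against 16.9 and 13.1 TPM in WT. Phb2, a prohibitin of the inner mitochondrial membrane, lay below with 18.4 and 84.5 TPM in U12Δ/Δ and 10.4 and 27.6 TPM in U6atacΔ/Δ, against 87.3 and 125.1 TPM in WT. One U12Δ/Δ library of Phb2 came within 0.05 of WT on the log2 scale. These are the 4 hosts in which the groups did not overlap.

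The other 11 hosts overlapped. The highest level was that of Kcmf1, a ubiquitin ligase, with 41.9 and 1140 TPM in U12Δ/Δ and 147.8 and 111.7 TPM in U6atacΔ/Δ, against 34.1 and 104.3 TPM in WT. The transcription factor pros, which drives neural daughter cells out of division, had 13.4 and 20.3 TPM in U12Δ/Δ and 29.0 and 5.22 TPM in U6atacΔ/Δ, against 4.89 and 13.7 TPM in WT. In both genes a single deletion library set the extreme. nmo, a kinase of the Nemo family, Lsm12a, stas, BuGZ, Naa60, an acetyltransferase, the syntaxin Syx6 and the palmitoyltransferase Zdhhc8 had log2 differences between 0.09 and 1.67. CG11839 and the tetraspanin Tsp97E had −0.82 and −0.88. Neighbor centring turned the sign of CG11839 and Tsp97E. For nmo, Lsm12a, stas and Zdhhc8 neither scaling nor centring did, while leaving out a library or taking 1 strain alone did. Neither scaling nor centring turned the sign of a host on 1 side of WT. Leaving out a library or taking 1 strain alone cannot turn it there, since these hosts were picked by that rule. Of the 8 hosts in the quiet stretch, 1 lay above and 1 below. By intron ends, the 8 hosts of AT-AC introns had a median log2 difference of 0.88 with 2 above and 1 below, and the 6 hosts of GT-AG introns had 0.49 with 0 on either side. Whether reads within retained introns were counted is not given in the sources used here.

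**Figure D2:**
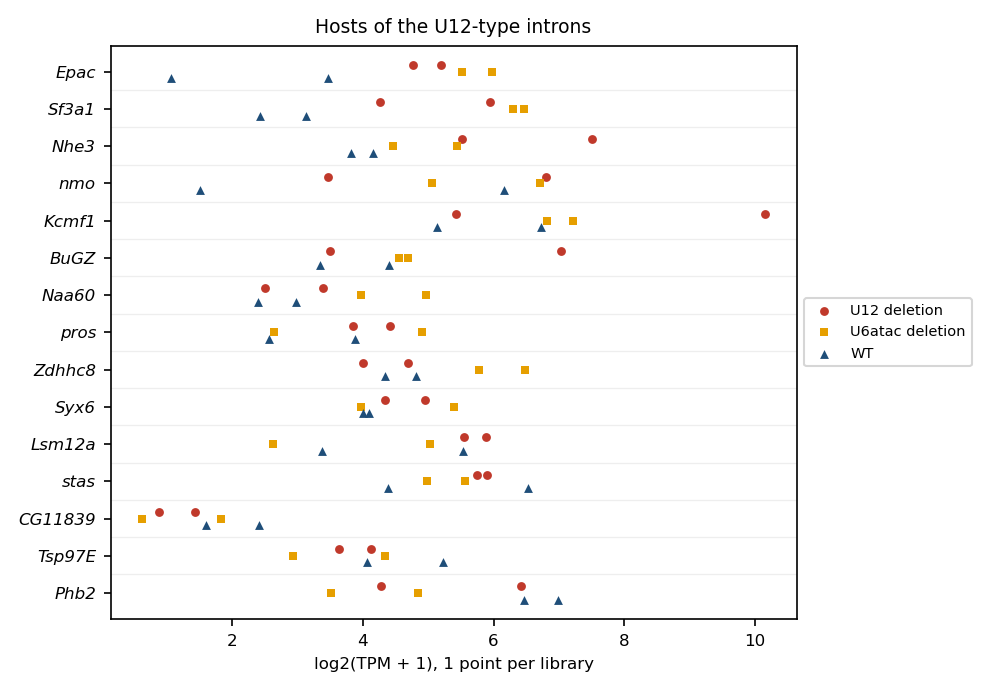
Each row is a host of a U12-type intron and each point a library, on the log2(TPM + 1) scale, with U12Δ/Δ as circles, U6atacΔ/Δ as squares and WT as triangles. Rows run from the highest to the lowest log2 difference, from Epac at 3.10 to Phb2 at −1.96, and the groups are apart only in Epac, Sf3a1, Nhe3 and Phb2.

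Of 40 hosts of the other sensitive introns, 2 lay above and 8 below, or 5% and 20%, with a median of −0.58 that turned to 0.05 under quantile normalization. These shares are near those of all genes. hydra, whose intron is printed above and whose transcript is made in the testis, had 3.33 and 1.73 TPM in U12Δ/Δ and 0.604 and 1.28 TPM in U6atacΔ/Δ, against 25.7 and 31.5 TPM in WT. CG4836 had 11.8 and 111.3 TPM in U12Δ/Δ and 11.02 and 23.6 TPM in U6atacΔ/Δ, against 580.6 and 3216 TPM in WT. The mucin gene Muc68Ca ran the other way, from 270.3 TPM to 15254 TPM in the deletion libraries against 120.3 and 158.8 TPM in WT. Of the 19 candidate genes of neural function that the study drew from its splicing results, 18 were tested, and 1 lay above and 2 below. sgg, the fly GSK3 kinase, had 76.0 and 300.9 TPM in U12Δ/Δ and 93.6 and 109.0 TPM in U6atacΔ/Δ, against 22.3 and 35.4 TPM in WT. Cnb lay below, at 0.811 to 6.27 TPM in the deletion libraries against 65.1 and 20.5 TPM in WT. Pcyt2, Zmynd10 and Fas3, which the study followed further, overlapped WT, with log2 differences of 0.10 ± 1.90, −0.30 ± 1.18 and −0.70 ± 1.82 (SE).

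Over all 10755 genes, limma's moderated test with Benjamini-Hochberg adjustment called 0 genes higher and 0 lower at 0.05, or 0% in each direction. At an unadjusted p under 0.05 it found 155 genes higher and 1203 lower. The lowest adjusted p was 0.183, for CG12782 and CG30428, both lower in the deletion libraries. Without the filter on low values the test called 2 genes higher and 140 lower. It called 64 lower without the first WT library and 259 lower without the second, with 0 higher each time, and a group with a lone WT library borrows its spread from the others. An exact rank test of 4 libraries against 2 cannot go below a two-sided p of 0.133 for a single gene. Fitted alone, the 3695 genes of the quiet stretch gave 9 genes higher and 96 lower, or 0.244% and 2.6%. In that stretch 151 genes, 4.09%, lay above both WT libraries and 842, 22.8%, lay below. After median-ratio scaling within the stretch, 11 were called higher and 28 lower, and these include all 9 and 28 of the 96. Leaving out the second U6atacΔ/Δ library left 2 higher and 22 lower, leaving out the first U12Δ/Δ library gave 5 and 28, and leaving out a WT library gave 6 and 48 or 2 and 216. Called under each of the 6 omissions were 1 gene higher, Dso1, and 17 lower, among them Sox15, Mst98Ca, stg, disco, hydra, Tpl94D, tHMG1, tHMG2, E(spl)mgamma-HLH and ball, a chromatin kinase of germ cells and dividing tissues. Over all rows the genes called in this stretch had adjusted p values of 0.20 to 0.30. Below, rose and fell are used only of calls in this stretch before scaling. The adjusted p values given are those of that fit, unless scaling is named.

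**Figure D3:**
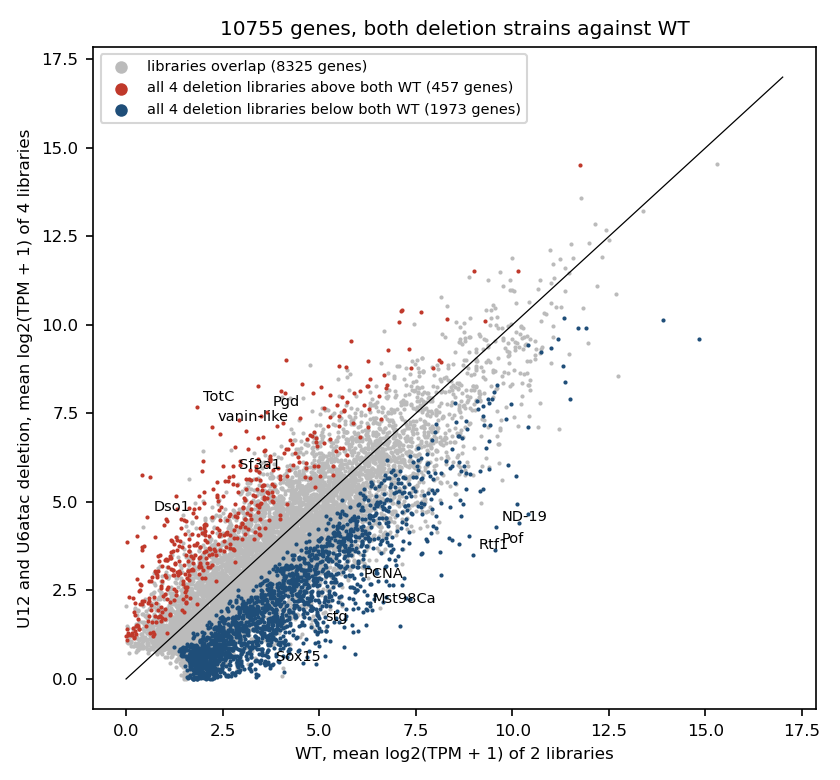
Each point is a gene, with the mean of the 2 WT libraries on the x axis and the mean of the 4 deletion libraries on the y axis, both as log2(TPM + 1). Genes with all 4 deletion libraries above both WT libraries (457) are red, those with all 4 below (1973) are blue, the other 8325 are gray, and most blue points lie below the diagonal at low and middle levels.

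Among the lists examined, the Turandot genes and the Toll-induced peptides had the highest shares above WT, 80% and 69.2%, against 4.25% of all genes. The list of Toll-induced peptides was added after values were seen. The Turandot genes encode small proteins that larvae release into the hemolymph under heat, infection and other stresses. Of 5 tested, 4 lay above and 0 below, with a median log2 difference of 3.82. TotC had 366.8 and 203.5 TPM in U12Δ/Δ and 282.7 and 83.5 TPM in U6atacΔ/Δ, against 4.88 and 1.17 TPM in WT, and 6.74 and 9.71 TPM in SmnΔ/Δ. This is the largest log2 difference among the 457 genes, 5.85 ± 1.03 (SE). TotB had 37.8 and 25.1 TPM in U12Δ/Δ and 3.50 and 8.74 TPM in U6atacΔ/Δ, against 0.0304 and 0.0218 TPM in WT. Both were far above WT in all 4 libraries. TotE was dominated by a U6atacΔ/Δ library at 2767 TPM, with 1.00 to 39.2 TPM in the other 3 deletion libraries, against 0.800 and 0 TPM in WT. The 5 Turandot genes lie outside the quiet stretch, in rows that share deviations, and after centring each gene on the 10 rows around it 3 of the 5 lay above.

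Toll-induced peptides, which fat body cells secrete when the Toll pathway is active, stood on the same side. Of 13 tested, 9 lay above and 0 below, with a median of 2.13. Of these 13, 12 are in the quiet stretch, where 8 lay above, against 4.09% of all genes there. Their summed TPM was 218.8 and 296.6 in U12Δ/Δ and 209.3 and 198.5 in U6atacΔ/Δ, against 33.4 and 19.5 in WT. Dso1, a daisho peptide active against filamentous fungi, had 25.2 and 58.9 TPM in U12Δ/Δ and 20.7 and 8.12 TPM in U6atacΔ/Δ, against 0.834 and 0.159 TPM in WT. Dso1 rose by 4.02 on the log2 scale with an adjusted p of 0.0071. BaraA1, a precursor of baramicin peptides, had 39.6 and 35.3 TPM in U12Δ/Δ and 10.4 and 55.7 TPM in U6atacΔ/Δ, against 5.07 and 1.74 TPM in WT, and rose with an adjusted p of 0.0497. IBIN, a small peptide gene induced by infection, had 67.7 and 77.1 TPM in U12Δ/Δ and 32.6 and 64.1 TPM in U6atacΔ/Δ, against 5.79 and 1.24 TPM in WT. BomS1 and BomS2, short Bomanins, lay above at 4.84 to 35.0 TPM and 5.13 to 8.04 TPM in the deletion libraries, against 2.22 and 0.763 TPM and 0.453 and 1.03 TPM in WT. The list of other immune effectors, mostly peptides of the Imd pathway and recognition proteins, gave 1 above and 1 below of 18. PGRP-LF, a receptor that dampens Imd signaling, was higher, at 5.90 to 12.2 TPM against 2.82 and 2.63 TPM in WT. PGRP-SB1, a peptidoglycan amidase, was lower at 0.114 to 3.33 TPM, against 14.3 and 9.63 TPM in WT.

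Detoxification enzymes were examined as families, in lists added after values were seen. Of 33 glutathione S-transferases, which couple glutathione to reactive compounds, 8 lay above and 1 below, with a median of 0.68. These are 24.2% and 3.03%, against 4.25% and 18.3% of all genes. With neighbor centring 7 lay above and 4 below, with a median of 0.40, and GstD5, GstD6 and GstD7 stand in adjoining rows. In the quiet stretch 5 of 16 lay above, against 4.09% of all genes there, and limma called 0 of them. GstD6 had 84.3 and 13.8 TPM in U12Δ/Δ and 13.6 and 12.2 TPM in U6atacΔ/Δ, against 1.09 and 1.07 TPM in WT. GstT4 was the exception, at 24.7 to 65.3 TPM in the deletion libraries against 246.2 and 179.4 TPM in WT. Of 24 UDP-glycosyltransferases, which attach sugars to lipophilic compounds, 5 lay above and 0 below, and 7 and 1 with neighbor centring. In the quiet stretch 1 of 5 lay above with a median of −0.15. Ugt37A3 had 423.9 and 72.9 TPM in U12Δ/Δ and 103.1 and 192.6 TPM in U6atacΔ/Δ, against 18.7 and 1.97 TPM in WT. Members of these families stand in clusters, and reads of near-identical members can be split between them.

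Other genes with a wide gap above WT belong to several processes. Pgd, which encodes an enzyme of the pentose phosphate pathway that makes NADPH, had 228.0 and 266.4 TPM in U12Δ/Δ and 157.7 and 119.6 TPM in U6atacΔ/Δ, against 7.17 and 18.04 TPM in WT. Letm1, an ion exchanger of the mitochondrial inner membrane, had 70.3 and 98.9 TPM in U12Δ/Δ and 105.7 and 100.1 TPM in U6atacΔ/Δ, against 8.08 and 4.49 TPM in WT. Its 4 deletion libraries lay closer together than its 2 WT libraries on the log scale. vanin-like had 147.9 and 81.0 TPM in U12Δ/Δ and 103.1 and 285.3 TPM in U6atacΔ/Δ, against 9.55 and 1.05 TPM in WT. Sf3a2, a partner of Sf3a1 in the SF3a complex, had 20.8 and 18.1 TPM in U12Δ/Δ and 15.5 and 19.04 TPM in U6atacΔ/Δ, against 2.73 and 0.952 TPM in WT. CG43175, CG45079 and CG14818 complete the 12 with the widest gaps, with log2 differences of 3.30, 3.88 and 3.20. Within the quiet stretch ItgaPS4, an integrin alpha subunit, rose with 23.9 and 20.9 TPM in U12Δ/Δ and 7.11 and 4.36 TPM in U6atacΔ/Δ, against 0.281 and 0.396 TPM in WT (adjusted p = 0.016). dysf, a bHLH-PAS transcription factor of the tracheal system, rose with 17.3 and 27.0 TPM in U12Δ/Δ and 8.99 and 48.3 TPM in U6atacΔ/Δ, against 1.26 and 2.53 TPM in WT (adjusted p = 0.035). Epac rose there with an adjusted p of 0.038, 1 of 8 hosts of U12-type introns in the stretch. The other 4 that rose were CG13324, CG11893, CG33462 and CG11313. In the basement membrane list 2 of 9 lay above, among them Col4a1, a type IV collagen chain, at 114.4 to 726.6 TPM against 49.0 and 29.7 TPM in WT.

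**Figure D4:**
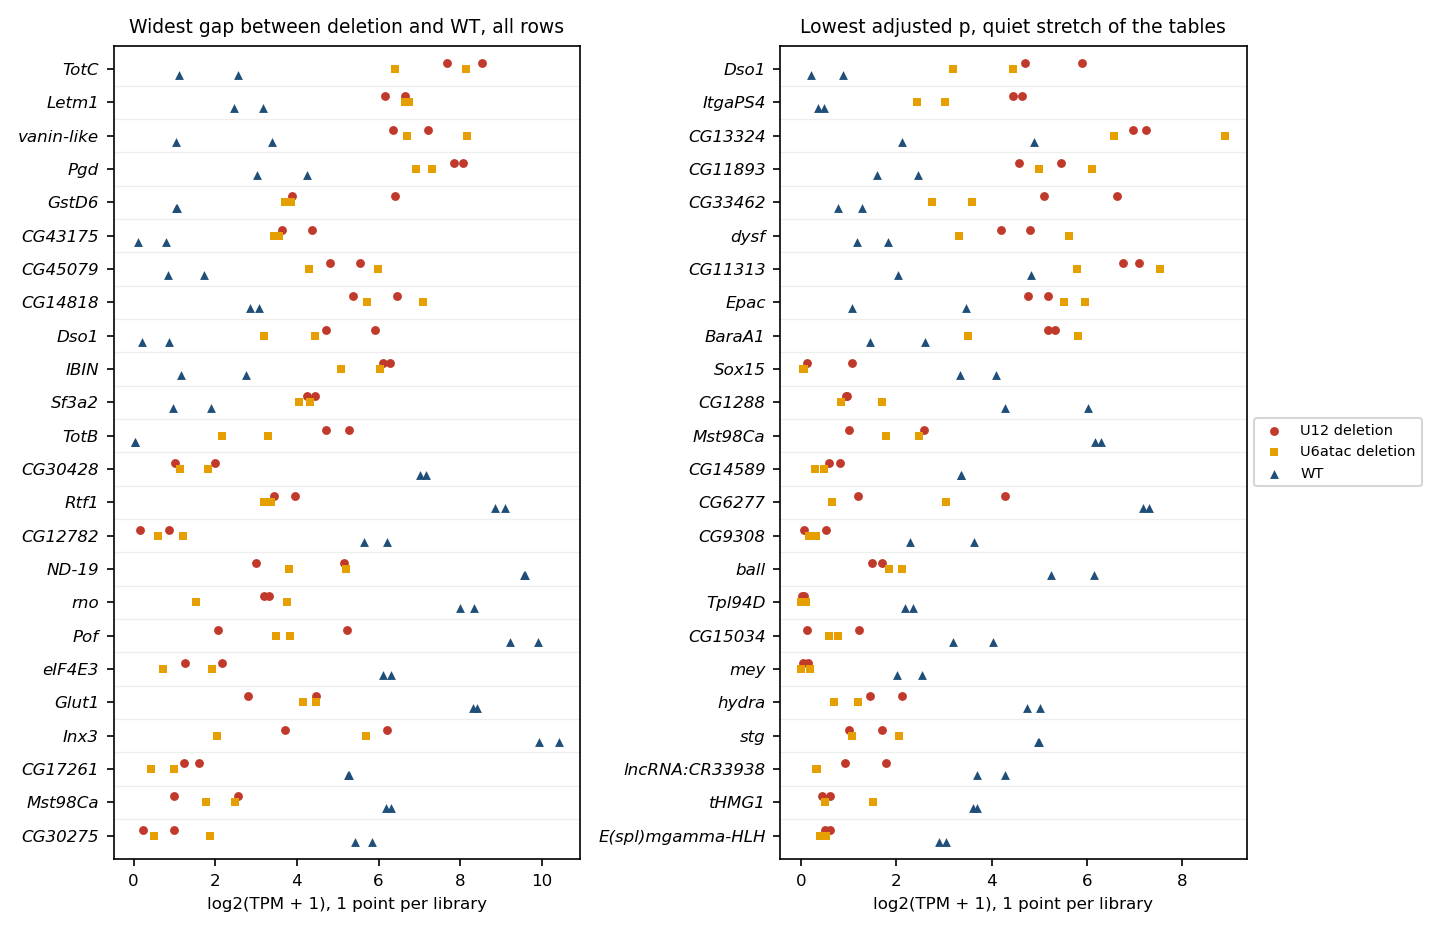
Each row is a gene and each point a library, on the log2(TPM + 1) scale, with U12Δ/Δ as circles, U6atacΔ/Δ as squares and WT as triangles. The left panel shows the 12 genes in each direction with the widest gap between deletion and WT libraries, from TotC to CG30275, and the right panel the 9 genes called higher and the 15 of lowest adjusted p called lower in the quiet stretch, and in neither panel do the groups overlap.

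Among the genes below WT, those that pattern imaginal discs, the larval sheets of cells that form the adult eye, wing and leg, were frequent. The list was put together after values were seen. Of 52 tested, 0 lay above and 24 below, or 46.2% against 18.3% of all genes, with a median log2 difference of −1.38. Of the 28 in the quiet stretch 17 lay below and limma called 9 lower, against 22.8% and 2.6% of all genes there. Sox15, a transcription factor of the wing hinge and of sensory organs, had 0.0867 and 1.09 TPM in U12Δ/Δ and 0.0246 and 0.0468 TPM in U6atacΔ/Δ, against 9.04 and 16.2 TPM in WT. Sox15 fell by 3.39 on the log2 scale and had the lowest adjusted p of the stretch, 0.0044. Regulators of the eye disc were among the calls. eya, a coactivator and phosphatase required for eye fate, had 0.452 and 2.05 TPM in U12Δ/Δ and 1.06 and 0.625 TPM in U6atacΔ/Δ, against 38.7 and 6.535 TPM in WT, and fell with an adjusted p of 0.013. dan and danr, a pair of nuclear proteins of eye and antenna development, and gl, which specifies photoreceptors, fell as well. gl had 0.0317 to 0.348 TPM in the deletion libraries against 4.44 and 1.73 TPM in WT. disco, a zinc finger factor of legs and of the optic nerve, had 0.886 and 0.336 TPM in U12Δ/Δ and 0.263 and 1.16 TPM in U6atacΔ/Δ, against 7.56 and 9.50 TPM in WT. The Notch ligand gene Ser, which defines the wing margin, had 4.73 and 5.201 TPM in U12Δ/Δ and 4.51 and 2.55 TPM in U6atacΔ/Δ, against 37.8 and 24.2 TPM in WT. Wnt2 and hbn complete the 9. After scaling within the stretch Sox15, eya, danr and disco kept their calls, with adjusted p values of 0.015 to 0.048, and gl, dan, hbn, Wnt2 and Ser did not.

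Outside the quiet stretch, ap, the selector of dorsal wing cells, had 1.83 to 7.89 TPM in the deletion libraries, against 24.7 and 394.1 TPM in WT. Its log2 difference of −4.47 shrank to −0.49 with neighbor centring. ara, of the Iroquois complex, had 0.393 to 5.38 TPM in the deletion libraries, against 6.81 and 30.6 TPM in WT. The others below were Lim1, vg, ci, dac, en, inv, hh, nub, salm, Dll, bab1, bab2 and B-H2, while dpp, wg, so, ey, ptc and sd overlapped WT. With neighbor centring 18 of the 52 lay below and the median was −0.80. Genes of the Enhancer of split complex, direct targets of Notch signaling, showed the same direction, with 5 of 6 below and a median of −1.62. All of them are in the quiet stretch, where 22.8% of all genes lay below. That list too was added after values were seen. E(spl)mgamma-HLH, a repressor of neural fate, had 0.513 and 0.403 TPM in U12Δ/Δ and 0.307 and 0.429 TPM in U6atacΔ/Δ, against 6.45 and 7.23 TPM in WT, and fell with an adjusted p of 0.0071. In TPM the 4 deletion libraries, all near 0, differed by less than the WT libraries did from each other. On the log2(TPM + 1) scale they differed by more. E(spl)malpha-BFM fell too, with an adjusted p of 0.028, which was 0.135 after scaling within the stretch.

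Genes of DNA replication and mitosis also lay low. Of 44 tested, 0 lay above and 18 below, or 40.9% against 18.3% of all genes, with a median of −1.60. In the quiet stretch 11 of 16 lay below, against 22.8% of all genes there. stg, the Cdc25 phosphatase that starts mitosis, had 2.23 and 1.01 TPM in U12Δ/Δ and 3.13 and 1.09 TPM in U6atacΔ/Δ, against 30.9 and 30.5 TPM in WT. PCNA, the sliding clamp of DNA polymerase, had 3.71 and 5.30 TPM in U12Δ/Δ and 5.84 and 7.29 TPM in U6atacΔ/Δ, against 58.8 and 65.7 TPM in WT. Both showed a tight pair of WT values and no deletion library near them. stg fell by 3.54 (adjusted p = 0.0068) and PCNA fell by 3.30 (adjusted p = 0.016). CycB3, a mitotic cyclin, fell with an adjusted p of 0.019, which makes 3 calls in 16, against 2.6% of all genes of the stretch. After scaling within the stretch stg kept its call, while PCNA and CycB3 had 0.080 and 0.093. pim, the fly securin, and barr, a condensin subunit, lie outside the stretch, at 0.131 to 0.988 TPM and 1.29 to 4.69 TPM in the deletion libraries, against 2.40 and 67.5 TPM and 311.3 and 7.48 TPM in WT. For each of these a single WT library carried most of the difference. The others below included the kinases aurA, polo and Cdk2, the cyclins CycD and CycE, the origin factors dup, dpa and Mcm3, and the polymerase subunits PolA1 and PolE1. In sum the 44 genes reached 270.1 and 1167 TPM in U12Δ/Δ and 277.8 and 364.3 TPM in U6atacΔ/Δ, against 1427 and 1429 TPM in WT, so the second U12Δ/Δ library stood nearer to WT than the rest. Without that library 25 of the 44 lay below, or 56.8%, against 25.2% of all genes. Leaving out a library can only raise these shares, which were 40.9% and 18.3% with all 4 deletion libraries. FLASH, which takes part in making histone mRNA, and Nek2, a centrosomal kinase, are outside the list and fell in the quiet stretch, with adjusted p values of 0.016 and 0.0087, although FLASH had 0.082 after scaling. Adgf-E, an adenosine deaminase related growth factor, fell as well (adjusted p = 0.0087).

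Transcripts of the male germline formed the third group. Wandering L3 testes hold spermatocytes, in which many of these genes are transcribed before meiosis. Of 34 tested, 0 lay above and 14 below, or 41.2% against 18.3% of all genes, with a median of −1.85. In the quiet stretch 9 of 14 lay below, against 22.8% of all genes there, with a median of −2.27. Mst98Ca, a gene transcribed in the testis, had 1.00 and 4.94 TPM in U12Δ/Δ and 2.42 and 4.57 TPM in U6atacΔ/Δ, against 71.0 and 77.4 TPM in WT. Mst98Ca fell by 4.28 (adjusted p = 0.0059). The list's other calls were S-Lap7, a leucyl aminopeptidase of sperm, and janB, whose adjusted p was 0.056 after scaling. S-Lap7 had 4.07 and 29.2 TPM in U12Δ/Δ and 4.19 and 22.5 TPM in U6atacΔ/Δ, against 180.5 and 220.9 TPM in WT, so all 4 deletion libraries were well under WT. Mst77F, a chromatin protein of sperm heads, and S-Lap8 lay below without being called, at 1.27 to 14.3 TPM and 3.98 to 18.5 TPM, against 28.8 and 25.7 TPM and 44.5 and 44.0 TPM in WT. Chromatin proteins of late spermatids that the list did not hold fell too. Tpl94D had 0 to 0.0772 TPM in the deletion libraries against 4.10 and 3.53 TPM in WT, and tHMG1 had 0.359 to 1.84 TPM against 11.9 and 11.1 TPM in WT. The HMG box gene tHMG2 and klhl10, which guides caspase activation in spermatids, fell as well.

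The level of the whole germline list was uneven among libraries. Its summed TPM was 174 and 4151 in U12Δ/Δ and 205.9 and 446.5 in U6atacΔ/Δ, against 1864 and 937.7 in WT, and 813.2 and 760.7 in SmnΔ/Δ. The second U12Δ/Δ library therefore had the highest sum of all, although its Mst98Ca and S-Lap7 were low. Without it 20 of the 34 genes lay below both WT libraries, or 58.8%, against 25.2% of all genes. Leaving out a library can only raise these shares, which were 41.2% and 18.3% with all 4 deletion libraries. The sex of the pooled larvae is not labelled. lncRNA:roX1, an RNA of male X chromosome dosage compensation, had 243.5 and 378.7 TPM in U12Δ/Δ and 98.6 and 69.5 TPM in U6atacΔ/Δ, against 88.3 and 37.7 TPM in WT. lncRNA:roX2 had 0.614 and 28.5 TPM in U12Δ/Δ and 0.480 and 82.3 TPM in U6atacΔ/Δ, against 14.6 and 126.8 TPM in WT. msl-2, a male protein of the same complex, overlapped, at 17.3 to 36.0 TPM in the deletion libraries against 45.5 and 31.5 TPM in WT. Sxl, the sex switch gene, lay below, with 9.05 to 21.6 TPM in the deletion libraries against 53.2 and 872.3 TPM in WT. vas, a marker of germ cells of either sex, overlapped, and piwi lay below at 0.112 to 0.400 TPM against 0.965 and 9.72 TPM in WT. With neighbor centring the log2 difference of piwi turned from −1.90 to 0.97. The part of sex ratio or of gonad size in the germline values was not tested.

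The widest gaps below WT came from genes of varied function. Rtf1, a subunit of the Paf1 transcription elongation complex, had 14.5 and 9.88 TPM in U12Δ/Δ and 8.10 and 9.39 TPM in U6atacΔ/Δ, against 549.6 and 460.6 TPM in WT, and 14.99 and 19.2 TPM in SmnΔ/Δ. Pof, a protein that coats the fourth chromosome, had 3.18 and 36.3 TPM in U12Δ/Δ and 10.2 and 13.3 TPM in U6atacΔ/Δ, against 962.3 and 592.4 TPM in WT. Pof had the largest negative log2 difference, −5.91 ± 1.09 (SE). ND-19, a subunit of mitochondrial complex I, had 6.96 and 34.6 TPM in U12Δ/Δ and 36.0 and 13 TPM in U6atacΔ/Δ, against 750.5 and 766.4 TPM in WT. Glut1, a glucose transporter, had 6.03 to 21.3 TPM in the deletion libraries, against 336.9 and 319.4 TPM in WT. Inx3, a gap junction protein, had 3.13 to 73.0 TPM in the deletion libraries, against 1362 and 973.4 TPM in WT. In all of these the WT pair was far above each deletion library. The germline cap binding protein gene eIF4E3 had 0.640 to 3.50 TPM in the deletion libraries, against 67.9 and 77.4 TPM in WT, but 181.8 and 148.6 TPM in SmnΔ/Δ. rno, CG30428, CG12782, CG17261 and CG30275 complete the list together with Mst98Ca. Mst98Ca alone of these 12 stands in the quiet stretch, as does Dso1 alone of the 12 above WT. Rtf1, CG30275, CG12782, ND-19, Pof, CG30428, rno, Glut1, eIF4E3 and Inx3 stand close together, between rows 10835 and 12208 of the deposited tables. Sharing between neighbors in WT ran from 0.343 to 0.682 in these blocks. With neighbor centring the log2 difference of Rtf1 went from −5.5 to −2.8 and that of rno from −5.2 to −2.2. Those of Pof and ND-19 went from −5.9 to −5.5 and from −5.3 to −4.8. Along the deposited rows 29.4% of the genes below WT were followed by a row also below, 580 in number, against 11.4% or 52 of those above.

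Markers of larval stage differed among the deletion libraries themselves. Salivary glue genes are switched on by ecdysone in the middle of the third instar. Sgs3 had 68492 and 1.96 TPM in U12Δ/Δ and 342.8 and 292.9 TPM in U6atacΔ/Δ, against 9759 and 4834 TPM in WT, so 1 deletion library was above and 3 below. Of 6 glue genes 1 lay below, Sgs1, with 114.8 and 0.365 TPM in U12Δ/Δ and 6.35 and 31.5 TPM in U6atacΔ/Δ, against 495.5 and 314.1 TPM in WT. Sgs1 fell in the quiet stretch with an adjusted p of 0.024, which was 0.076 after scaling. Fbp1, the receptor by which fat body takes up larval serum proteins, had 17438 and 20.5 TPM in U12Δ/Δ and 371.9 and 2522 TPM in U6atacΔ/Δ, against 26696 and 32428 TPM in WT. Lsp1beta, a larval serum protein, was higher, at 6670 to 95340 TPM in the deletion libraries against 2287 and 5147 TPM in WT. Of 23 ecdysone response genes 1 lay above, Eip63F-1, and 3 below. ImpE2, an ecdysone-induced gene of imaginal discs, had 1.14 to 3.89 TPM in the deletion libraries against 48.1 and 26.7 TPM in WT, and ImpE1 had 0.430 to 2.53 TPM against 36.3 and 6.29 TPM. Pre-glue genes, which precede the glue genes, gave 1 above and 0 below of 3, and Osiris genes of the cuticle 3 above and 0 below of 5, all outside the quiet stretch. From a comparison of transcriptomes, the study placed both deletion strains in a stage group with WT larvae. The age of the larvae within the stage was not analysed here.

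Lists of general cell functions had medians nearer to that of all genes, while smaller shares of them lay below WT. The cytosolic ribosome gave 7 above and 12 below of 84, the respiratory chain 1 and 6 of 86, the proteasome 1 and 3 of 32, muscle sarcomere genes 1 and 2 of 27, neuronal genes 1 and 2 of 32, and cuticle proteins of the Cpr family 2 and 6 of 49. The shares of these lists below WT ran from 6.25% to 14.3%, against 18.3% of all genes. The shares above ran from 1.16% to 8.33%, against 4.25%. The medians of these lists lay between −0.78 and −0.32 and, except for the Cpr list, turned positive under median-ratio scaling. Neuromuscular junction genes gave 3 above and 1 below of 18. Fas2, an adhesion protein that holds synaptic boutons, had 58.3 and 73.7 TPM in U12Δ/Δ and 70.4 and 40.3 TPM in U6atacΔ/Δ, against 11.8 and 14.1 TPM in WT. The 4 deletion libraries were all well above WT. gbb, a BMP ligand released by muscle, and the glutamate receptor subunit GluRIIB were closer, with log2 differences of 1.05 ± 0.82 and 0.64 ± 0.63 (SE), and dlg1, a scaffold of the synapse, lay below with −0.77 ± 0.86. elav, the pan-neuronal RNA binding protein, had 4.20 to 11.3 TPM in the deletion libraries against 18.6 and 20.8 TPM in WT, and the muscle myosin Mhc overlapped WT.

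Splicing factors showed no common direction. Of 25 proteins of the spliceosomal snRNPs 1 lay above, Sf3a1, and 5 below, in a list that does not hold the Sf3a2 described above. Of 15 genes of the SMN complex and the Sm ring, which builds snRNPs, 1 lay above and 3 below, the Sm proteins SmD1, SmD2 and SmF. SmD2 had 12.2 and 8.68 TPM in U12Δ/Δ and 13.8 and 9.63 TPM in U6atacΔ/Δ, against 35.9 and 38.5 TPM in WT. Smn itself had 9.76 and 200.3 TPM in U12Δ/Δ and 14.0 and 9.57 TPM in U6atacΔ/Δ, against 24.7 and 28.3 TPM in WT. In 3 deletion libraries it was under WT and in 1 far over it. Of 43 translation initiation factors, 2 lay above and 13 below, or 30.2% against 18.3% of all genes. Their median of −0.86 turned to 0.08 with neighbor centring. The members below included eIF4E3, eIF4E4, eIF4E5 and eIF4E7, paralogs of the cap binding protein eIF4E of which several are known from testis. In the quiet stretch eIF4H2 and eIF3f2 fell, with 0.080 and 0.129 after scaling. Heat shock proteins gave 1 above and 5 below of 24, with Hsp23 at 51.1 to 219.8 TPM in the deletion libraries against 3024 and 618.3 TPM in WT. Digestive enzymes of the gut gave 3 above and 1 below of 46.

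**Figure D5:**
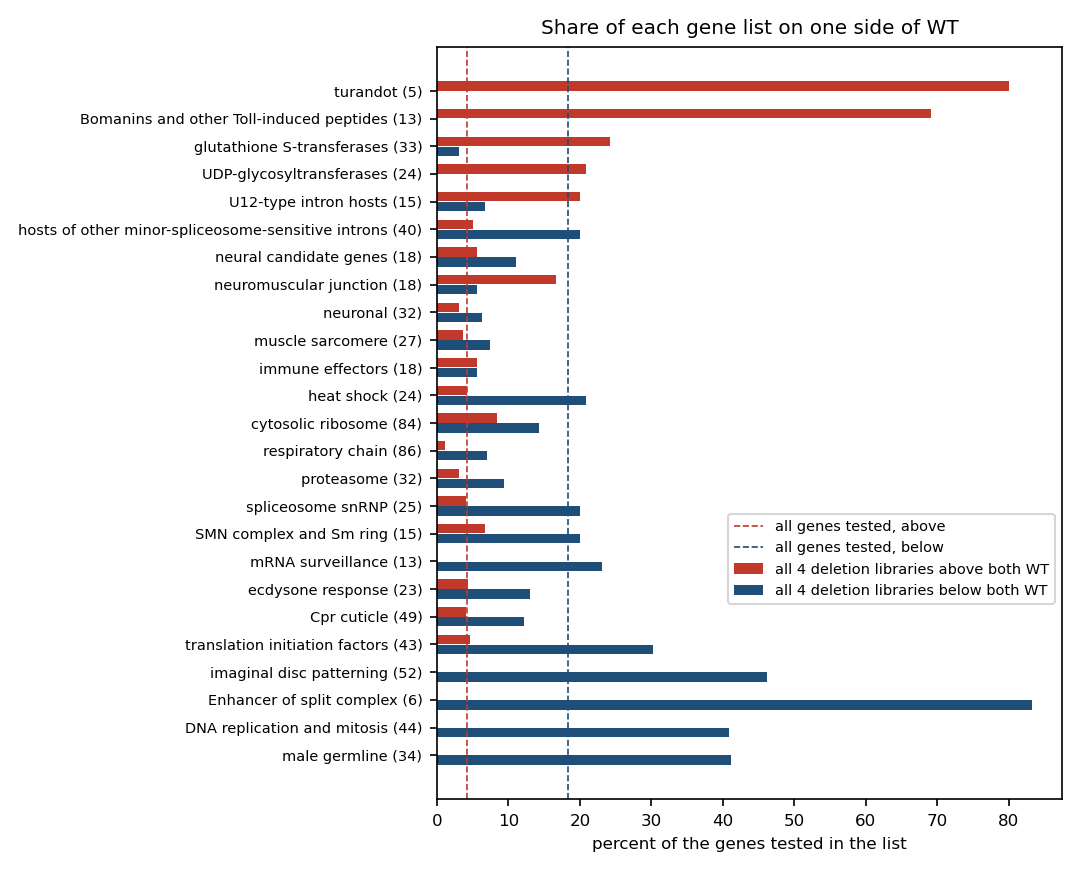
Each pair of bars is a gene list with the number of genes tested in parentheses, and bars give the percent of the list with all 4 deletion libraries above (red, upper bar) or below (blue, lower bar) both WT libraries. Dashed lines mark the shares among all genes, 4.25% above and 18.3% below, and the Turandot genes reached 80% above while the male germline, replication and imaginal disc lists reached 41.2%, 40.9% and 46.2% below.

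The 2430 genes differed in size of effect. Genes above WT had a median log2 difference of 1.77, from 0.26 to 5.85, and a median mean TPM of 21.6 in the deletion libraries against 4.02 in WT. Genes below had a median of −1.72, from −5.91 to −0.34, and a median mean TPM of 2.83 in the deletion libraries against 13.9 in WT. The gap between the nearest deletion and WT library was at least 1 on the log2 scale in 84 of the 457 and in 510 of the 1973, and at least 2 in 14 and 89. At the edge of the rule, Vha36-1 had 71.18 TPM in its lowest deletion library against 71 TPM in its highest WT library, and Diap1 had 77.35 TPM in its highest deletion library against 77.37 TPM in its lowest WT library. CG14050 and CG10514 had the next narrowest gaps. The genes above had a median of 3 introns and those below 2, against 3 in all genes, and 13.3% and 15.7% were without introns, against 13%. On the large chromosome arms the share below ran from 14.6% on 2L to 21.8% on 2R, with 22 of 76 genes on the fourth chromosome, or 28.9%, 2 of 3 on Y and 0 of 15 in the mitochondrial genome. With each gene centred on its neighbors in the tables, 1078 genes, 10%, lay above and 1136, 10.6%, below. These shared 341 genes with the 457, which is 74.6% of them and 31.6% of the centred ones, and 820 with the 1973, which is 41.6% and 72.2%.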

How the data were processed

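RNA-seq libraries of whole L3 larvae were grouped by the labelled strain. The authors filtered and trimmed the reads, mapped them to dm6 with TopHat2, and deposited TPM for each gene, with featureCounts also named in the submitters' processing notes. A TPM depends on all other genes of its library, and read numbers could not be recovered from the tables. The study gives read totals per library, which were not used here, since they do not give the reads behind a gene's TPM. Of 17473 gene IDs, 17330 matched a symbol in Ensembl release 115. From the TPM, log2(TPM + 1) was computed for 10755 genes averaging 1 TPM or more in the 6 libraries, and fold changes on this scale understate those of low genes. The 4 deletion libraries were compared with the 2 WT libraries in R 4.3.3 with limma 3.58.1 (eBayes with a trend), with Benjamini-Hochberg adjustment over all genes tested and a threshold of 0.05, and the difference between the deletion strains counts as spread. The fit was tested on simulated data. Counts, medians and plots were made with Python (3.11.15), pandas (2.3.3), numpy (2.4.6) and matplotlib (3.10.9). The repeats are described as biological, but there are only 2 pools per strain. The p values rest on the spread among these pools, including that between the deletion strains, moderated across genes. They measure no spread beyond these pools.

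Intron sequences were read from the study's list of sensitive introns. The members and gene lists were chosen with earlier results of these data known, and the lists of Toll-induced peptides, glutathione S-transferases, UDP-glycosyltransferases, translation initiation factors, basement membrane, sex-linked, imaginal disc patterning and Enhancer of split genes were added after values were seen. Lists are described by counts and medians. Genes named were those called by limma (up to 20 a direction), the 12 widest and 2 narrowest gaps in each direction, the hosts of U12-type introns, Pcyt2, Zmynd10, Fas3, both snRNA genes and Smn, and up to 4 members of each list on 1 side of WT. Genes called in the quiet stretch, BomS2 and single markers and list members were named after their values were seen.

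Alternatives were a pseudocount of 0.1, no filter or a minimum mean of 5 TPM, scaling by median ratios, quantile normalization, the replicate number as a block, other groupings in the fit, eBayes without a trend, each deletion strain alone and leaving out each library. Centring on 5 rows on each side and the quiet stretch (also scaled, and leaving out each library) were chosen after seeing the data.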

Additional observations from a re-analysis of the deposited data

Results flagged for a closer look

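Among the 4 deletion libraries, 1 library stood far from the other 3 in 5 of the 74 named genes examined in this way, and chance alone gives about 1 in 20. Letm1 had 70.3 TPM in the first U12Δ/Δ library, against 98.9 to 105.7 TPM in the other 3. GstD6 had 84.3 TPM in the first U12Δ/Δ library, against 12.2 to 13.8 TPM in the others, and all 4 stayed above WT. CG1288 had 2.25 TPM in the first U6atacΔ/Δ library and Sox15 had 1.09 TPM in the second U12Δ/Δ library, each the highest of its 4 and still under both WT libraries. Smn had 200.3 TPM in the second U12Δ/Δ library, against 9.57 to 14.0 TPM in the other 3.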

How the results depend on the processing

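Calls over all rows stayed at 0 and 0 under a pseudocount of 0.1, a mean TPM of at least 5, both scalings, other groupings, neighbor centring and either strain alone. Without the filter limma called 2 higher and 140 lower, and in the quiet stretch 9 and 96, or 11 and 28 after median-ratio scaling. Leaving out each library gave 0 higher throughout and 0 to 259 lower. Genes above both WT libraries numbered 457, and 1041 under median-ratio scaling, 1073 under quantile normalization, 1078 with neighbor centring, 1111 with U12Δ/Δ alone, 1273 with U6atacΔ/Δ alone and 151 in the quiet stretch, and leaving out each library gave 632 to 1506. Genes below numbered 1973, and 3039 without the filter, 1158 at a mean TPM of at least 5, 1092, 1076 and 1136 under the 2 scalings and centring, 3393 and 3586 with U12Δ/Δ or U6atacΔ/Δ alone, 842 in the quiet stretch, 425 there after scaling, and 2443 to 3951 on leaving out each library. In the quiet stretch, leaving out each library gave 2 to 10 higher, 2 without the second U6atacΔ/Δ or the second WT library, and 22 to 216 lower, 22 without the second U6atacΔ/Δ, 28 without the first U12Δ/Δ, 48 without the first WT and 216 without the second WT library, of which 22, 25, 37 and 80 were among the 96. The causes were not tested.

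The deviations of same-numbered libraries correlated between strains at −0.02, 0.11 and 0.07. The labels name no batch, and whether same-numbered libraries share one was not tested. With the replicate block limma called 0 higher and 0 lower, and 144 and 1161 at an unadjusted p under 0.05. The tables hold no reads per gene, so no counting error was computed.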
